A study of Mus musculus with 8 samples.

Results

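The ULK complex starts the formation of autophagosomes, and the 5 genes of its subunits, Ulk1, Ulk2, Atg13, Rb1cc1 and Atg101, were taken by symbol from the 21080 genes of the deposited tables. All 5 genes were listed in every sample and passed the filter on low values in every comparison. The rule behind the set is membership of the complex and uses no measured value.

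ULK1 and ULK2 are related serine/threonine kinases. Each can join ATG13, an adaptor that binds both the kinase and the scaffold FIP200 (encoded by Rb1cc1), and ATG101, which pairs with ATG13 and stabilises it. Under nutrient-rich conditions mTORC1 holds the complex inactive by phosphorylation, whereas AMPK and the relief of mTORC1 inhibition switch it on, after which the kinases phosphorylate the Beclin 1 lipid kinase complex and other autophagy proteins. In macrophages this pathway removes damaged organelles and bacteria and limits inflammatory signalling.

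RNA-seq was performed on bone marrow-derived macrophages (BMDMs), grown from C57BL/6 mouse marrow with M-CSF, in 8 samples that formed 4 groups of 2. Nudt21-cKO mice were Nudt21 fl/fl LysM Cre, in which Cre under the myeloid Lyz2 (lysozyme M) promoter deletes Nudt21, the UGUA-binding subunit of cleavage factor Im that takes part in choosing the poly(A) site of a transcript, and the WT mice were their sex-matched littermates with LysM-Cre alone, so both genotypes carried Cre. Each genotype was sampled at 0 h and after overnight IFNγ followed by LPS for 4 h, and each sample was pooled from a pair of mice whose age the labels do not give. The labels list IFNγ/LPS as the treatment of all samples, and the 0 h samples were taken as unstimulated from their titles.

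Values were read as the mean read coverage per base of a gene, a unit that allows levels of genes of different length to be compared. Coverage summed over all genes was between 14950347 and 17954882 per sample. Nudt21 itself had a coverage of 718 and 641 in the WT samples of 0 h, against 158 and 172 in those of cKO, and at 4 h the values were 547 and 575 against 142 and 115. The log2 fold changes were -2.04 and -2.13. Coverage is averaged over the whole gene, so reads from exons outside the deleted part are included. All 9 macrophage markers examined were covered, and at 0 h the genotypes did not overlap in several of them, in both directions. Adgre1 had 20130 and 24458 in WT against 13820 and 14295 in cKO, Csf1r 38697 and 44260 against 26255 and 30290, and Mrc1 1770 and 2104 against 1114 and 977. Cd68 had 45504 and 42908 against 69414 and 73397. At 4 h Csf1r overlapped (13236 and 13969 against 13055 and 13312), as did Itgam, while others were apart, with 12362 and 13101 against 24827 and 28817 for Cd68, 2897 and 3187 against 4413 and 4298 for Mertk, 12400 and 13299 against 9642 and 8983 for Adgre1, and 106 and 205 against 54.8 and 38.7 for Mrc1. The T cell markers together did not exceed a coverage of 4.63. Of the B cell markers, Cd79b was at 142 and 123 in the WT samples of 0 h against 69.1 and 66.3 in those of cKO, while Cd79a did not exceed 4.24 and Ms4a1 did not exceed 0.14 in any sample. The neutrophil markers, led by S100a8 and S100a9, summed to 18972 to 19966 in WT and 21719 to 28852 in cKO at 0 h, with Ly6g at 7.37 or less. At 4 h this list gave 15287 to 18345 in WT and 17724 to 20555 in cKO. The 4 dendritic cell markers summed to 9.71 to 12.9 at 0 h, and at 4 h to 1225 to 1946 in WT and 1034 to 1071 in cKO, led by Clec9a, with Flt3 at 3.54 or less. Zbtb46 alone had 6.59 and 7.08 in WT and 16.6 and 23.9 in cKO after stimulation. The part of these cells in the results was not tested, and in bulk samples fewer cells of a type and less RNA per cell cannot be told apart.

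After IFNγ/LPS, coverage of all 5 genes was lower than at 0 h in both genotypes, a call made for 55.1% of all tested genes in WT and 53.2% in cKO, and Ulk1 and Ulk2 had the largest falls of the complex. With each sample centred on its median gene, 3 members were called lower in WT (22.4% of all genes) and 2 in cKO (23.2%). At 4 h Ulk2, Atg13 and Ulk1 were higher in cKO than in WT, by 3.05-, 2.34- and 2.22-fold, where 20.8% of all tested genes were called higher. These calls rest on an unadjusted p, and none of the 3 passed with an adjusted one (0.0526 to 0.0576 by limma). For Rb1cc1 and Atg101 the same comparison gave 1.38- and 1.40-fold, below the fold threshold. At 0 h none of the 5 passed, beside 8.99% of all genes called higher, and the value nearest to the threshold was the 1.47-fold higher Ulk2 in cKO. The plot of coverage by sample shows the 8 values of each gene.

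**Figure D1:**
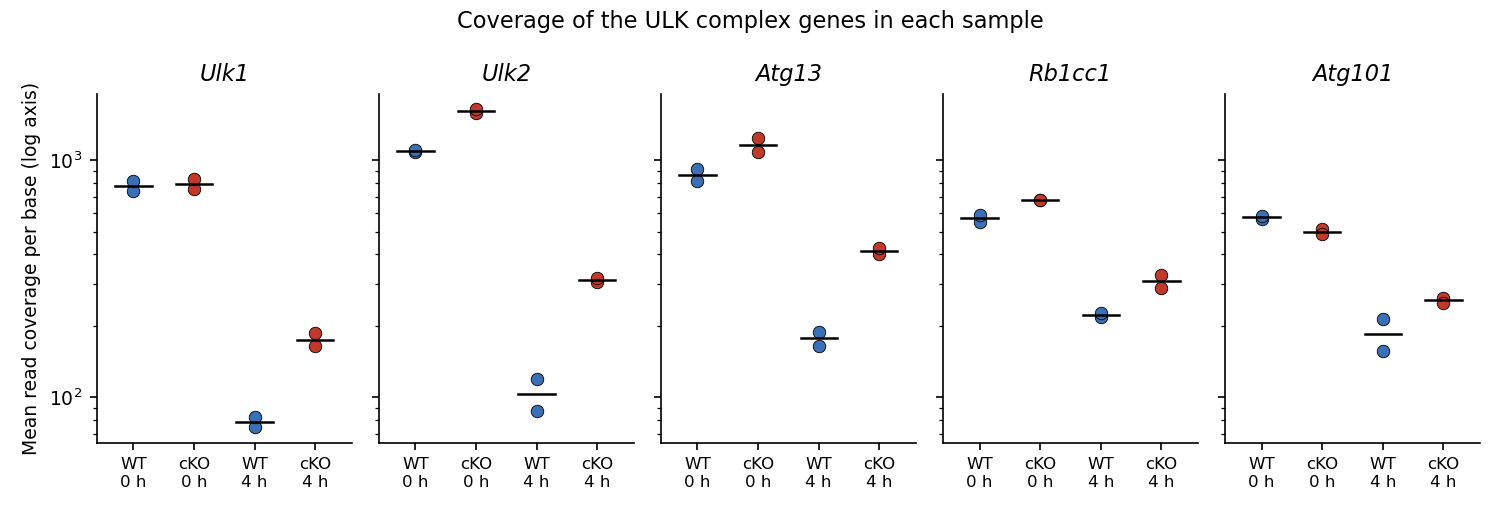
Mean read coverage per base (log axis) of each ULK complex gene in the 8 samples, with WT in blue, cKO in red and a line at the mean of each group of 2. In WT all genes drop at 4 h, and at 4 h both cKO samples lie above both WT samples for each of the 5 genes, as they do for 51.1% of all tested genes.

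Since Nudt21 binds UGUA near poly(A) sites, the annotated 3′UTRs of the 5 genes were read from the GENCODE M21 annotation on GRCm38. For each gene the RefSeq-linked transcript with the longest 3′UTR was used. Each 3′UTR was searched on the transcript strand for UGUA and for AAUAAA, the main poly(A) signal, overlapping matches included. Variants of AAUAAA were not searched, so other poly(A) signals may be present. Ulk2 (chr11:61775649-61855073, minus strand) has a 3′UTR of 2132 bases with 20 UGUA, more than 88.4% of the tested genes that could be matched, and 5 AAUAAA, of which 3 lie more than 50 bases from the annotated end. Rb1cc1 (chr1:6206197-6276648, plus strand) has the longest 3′UTR of the complex, 2373 bases with 24 UGUA and 7 AAUAAA, all more than 50 bases from the end. Ulk1 (chr5:110784488-110810097, minus strand) has 9 UGUA in 1684 bases and Atg13 (chr2:91674618-91710576, minus strand) has 7 in 1768 bases, each with 1 AAUAAA close to the annotated end. Atg101 (chr15:101284272-101290945, plus strand) has the shortest, 273 bases with 3 UGUA and 1 AAUAAA. In the number of UGUA, Rb1cc1 exceeded 92.4% of the matched genes, Ulk1 64.2%, Atg13 56.2% and Atg101 32.7%. Per kb of 3′UTR the values were 92.4% for Atg101, 90.0% for Rb1cc1, 87.3% for Ulk2, 52.8% for Ulk1 and 36.1% for Atg13. Over the 12585 of 14950 tested genes with an annotated 3′UTR the median length was 1020 bases and the median number of UGUA was 5, at least 1 UGUA was present in 87.5%, and 45.5% had an AAUAAA more than 50 bases from the end.

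The sequence around 1 AAUAAA of each gene, and around an internal and a terminal one of Ulk2, is given below 5′ to 3′ in DNA letters, with AATAAA and TGTA in capitals. Ulk2 and Rb1cc1 are shown at the internal signal with the most UGUA in the 100 bases before it (3 and 4). Ulk1, Atg13 and Atg101 are shown at the only AAUAAA of the 3′UTR used. The 100 bases before the signals of Ulk1 and Atg13 hold no UGUA, nor do those before the Ulk2 signal at 259 bases from the stop codon and the Rb1cc1 signals at 196, 340 and 2077 bases, which are not shown, whereas Atg101 has 3, the nearest 13 bases before its signal.
Ulk2, 1553 bases from the stop codon, chr11:61776219-61776248: acaaaTGTAtattaaggttaAATAAAactg
Ulk2, 2106 bases from the stop codon, chr11:61775666-61775695: tttgccttgattatagcaatAATAAATAAA
Rb1cc1, 872 bases from the stop codon, chr1:6275127-6275156: gaccTGTAcaattttaagacAATAAAgaat
Ulk1, 1665 bases from the stop codon, chr5:110784498-110784527: gtgtcatatcagtttaagaaAATAAAaatt
Atg13, 1744 bases from the stop codon, chr2:91674633-91674662: aatataatcaagagatttccAATAAAaagt
Atg101, 246 bases from the stop codon, chr15:101290898-101290927: acTGTAcTGTAggggtgctgAATAAAgttg

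Ulk2 is also the member for which the study designed a PCR assay of the distal 3′UTR, and the position of its primers shows which part of the transcript that assay reads. The general pair spans the stop codon in exon 27, from coding sequence at chr11:61777793-61777812 to 81 bases into the 3′UTR. The distal pair lies 1607 to 1681 bases from the stop codon, beyond the AAUAAA at 1553 and before the terminal signals.
General forward primer of Ulk2: cagcactctgctgtagcact
General reverse primer of Ulk2: ctgggatgggtgacagaacc
Forward primer beyond the internal signals of Ulk2: agccagatgcttccttagaga
Reverse primer beyond the internal signals of Ulk2: gttttgaatcctggagcaggg

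**Figure D2:**
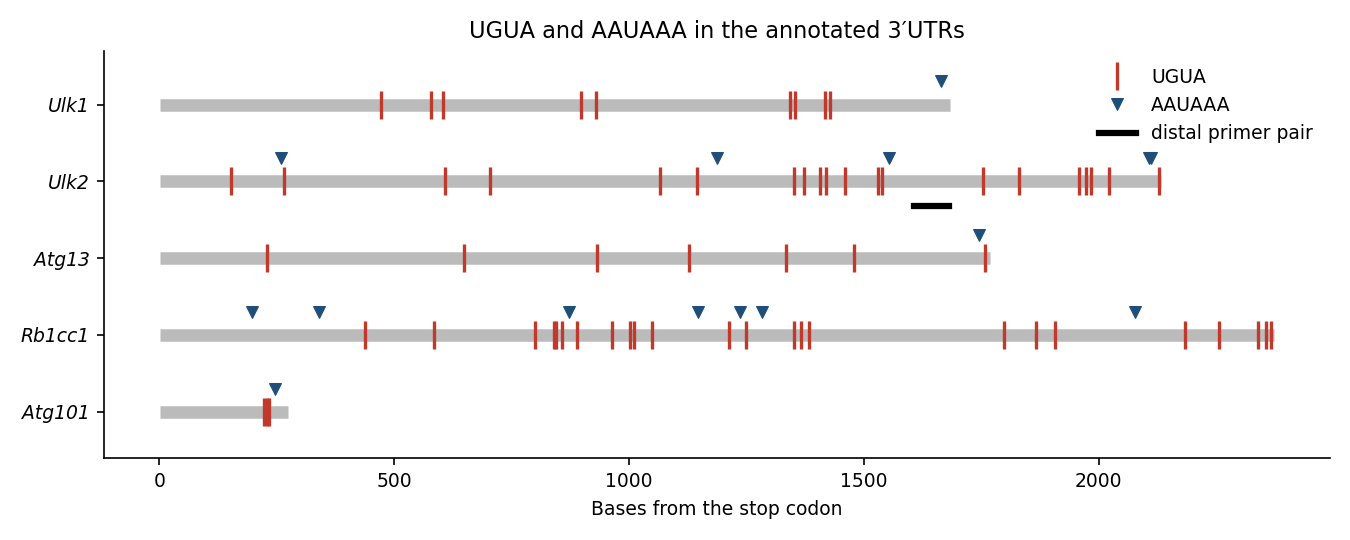
Annotated 3′UTRs of the 5 genes, drawn to scale in bases from the stop codon, with UGUA as red lines, AAUAAA as blue triangles and the Ulk2 distal primer pair as a black bar. Ulk2 (20 UGUA) and Rb1cc1 (24 UGUA) carry internal AAUAAA, and in Ulk1, Atg13 and Atg101 the only AAUAAA is near the annotated end.

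The deposited values are 1 number per gene, so coverage before and after an internal signal was not resolved here. Any part of UGUA or AAUAAA in the differences between genotypes was not tested.

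To ask how Nudt21 loss altered the complex in activated macrophages, cKO and WT were compared at 4 h. Calls follow the threshold of the study, a fold change of more than 1.5 and an unadjusted p below 0.05, here from limma. Of 14950 genes tested, 20.8% were called higher in cKO, 624 genes were called lower, and the median gene stood at a log2 fold change of 0.31. Of the 5 members, 3 were called higher and none lower. With each sample centred on its median gene the same number of members, 3, was called higher against 10.4% of all genes, and the split of all calls moved from 3112 higher and 624 lower to 1552 and 1480. With a Benjamini-Hochberg adjusted p under 0.05 none of the 5 was called by limma, against 3.33% of all genes, while 4 of the 5 had an unadjusted p under 0.05, as did 34.3% of all genes.

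Ulk2, the kinase followed further in the study, had a coverage of 87.7 and 119 in the WT samples of 4 h and of 307 and 317 in the cKO samples. The lowest cKO sample was thus well above the highest WT sample. The log2 fold change was 1.61 (SE 0.20, n = 2 per group), with an adjusted p of 0.0576 by limma, and it exceeded that of 90.6% of tested genes. It lay between 1.26 and 1.83 over all alternatives, where the adjusted p ranged from 0.00266 to 0.328.

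Ulk1, the other kinase of the complex, was at 75 and 82.5 in WT and 164 and 186 in cKO, and the groups did not overlap. Its log2 fold change was 1.15 (SE 0.13), with an adjusted p of 0.0547 by limma. Over the alternatives it lay between 0.81 and 1.24, with an adjusted p of 0.0045 to 0.324. Atg13 was at 165 and 189 in WT and at 401 and 427 in cKO, again without overlap. The log2 fold change of this adaptor was 1.23 (SE 0.13), with an adjusted p of 0.0526 by limma. Its alternatives gave 0.89 to 1.32 and an adjusted p of 0.00216 to 0.324.

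The scaffold gene Rb1cc1 was at 219 and 226 in WT and 328 and 290 in cKO. The groups were separate, but the log2 fold change of 0.47 (SE 0.12, adjusted p = 0.110 by limma) was under the fold threshold and lay 0.16 above the median gene. The antisense gene 4732440D04Rik shares 558 exonic bases with Rb1cc1. It was at 13.2 to 19 in the 4 h samples and 21.7 to 40.3 at 0 h, and since the library kit does not mark strand, reads from the shared bases cannot be told apart. Atg101 was at 213 and 157 in WT and 262 and 250 in cKO. The groups were separate by a smaller margin than for the other members. Its log2 fold change of 0.48 (SE 0.20) had an adjusted p of 0.212 by limma and did not pass. This value lay 0.18 above the median gene, and the other scalings gave 0.15 to 0.27. Without WT replicate 1, the sample at 213, it became 0.70 and was called (adjusted p = 0.132), and without WT replicate 2 it was 0.27.

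**Figure D3:**
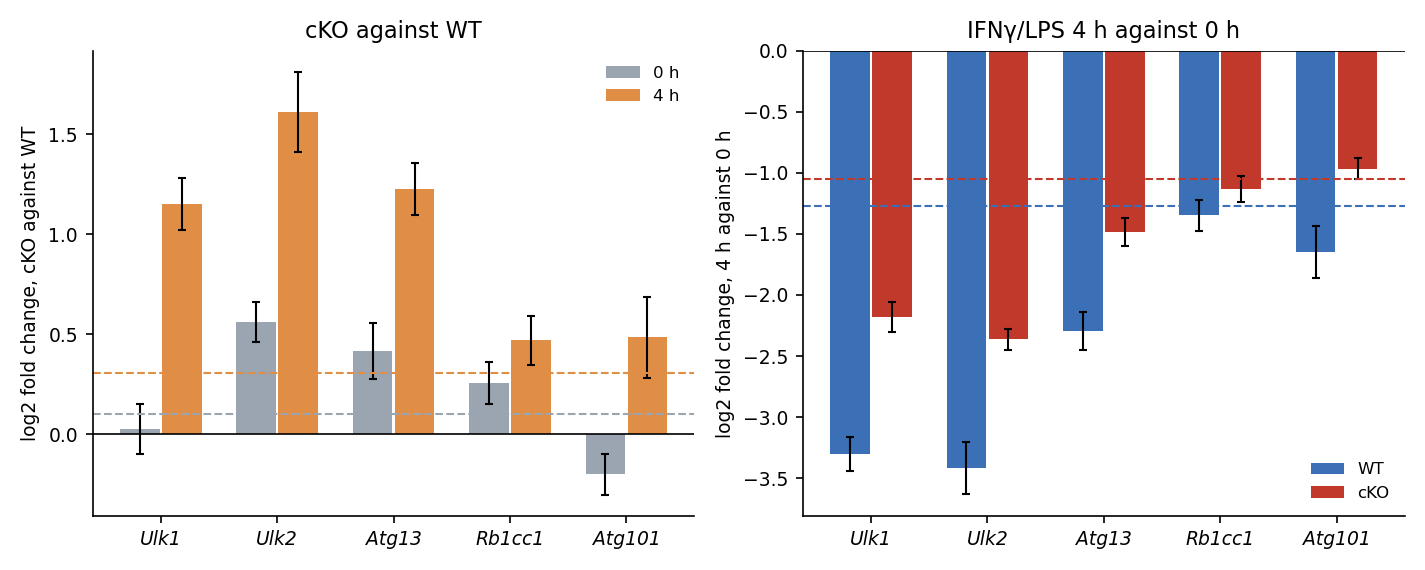
Log2 fold changes of the 5 genes from limma, with bars at the estimate and error bars of 1 SE (n = 2 per group), for cKO against WT at 0 h and 4 h (left) and for 4 h against 0 h in WT and cKO (right). Dashed lines mark the median of all genes tested in the comparison of the same colour. Ulk1, Ulk2 and Atg13 stand well above the 4 h median of 0.31 on the left, and Rb1cc1 lies close to the median line on the right.

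In resting cells the difference between genotypes was smaller. Of 16251 genes tested at 0 h, 8.99% were called higher in cKO and the median log2 fold change was 0.10. None of the 5 members was called by limma, and Ulk2 alone had an unadjusted p under 0.05, which 21.3% of all genes had. Ulk2 was at 1077 and 1101 in WT and 1574 and 1637 in cKO, with a log2 fold change of 0.56 (SE 0.10, adjusted p = 0.134 by limma), which falls just short of the fold threshold. Without cKO replicate 3 it was 0.59 and was called (adjusted p = 0.330).

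At 0 h Atg13 was at 819 and 919 in WT and 1081 and 1238 in cKO (log2 fold change 0.41, SE 0.14, adjusted p = 0.251 by limma). Rb1cc1 was at 547 and 589 in WT and 678 and 676 in cKO (0.25, SE 0.11, adjusted p = 0.305 by limma). Both genes thus had separate groups with cKO on top, as had 36.1% of all tested genes, and neither difference passed. Ulk1 was at 741 and 814 in WT and 753 and 832 in cKO, so the groups overlapped, and its log2 fold change was 0.03 (SE 0.125, adjusted p = 0.918 by limma). The sign of this value depended on the scaling and was negative after median-centring (-0.07). Atg101 was the only member below WT in both cKO samples, at 564 and 584 in WT and 510 and 490 in cKO. Its log2 fold change was -0.20 (SE 0.10, adjusted p = 0.371 by limma). The share of all genes with both cKO samples below WT was not computed.

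IFNγ/LPS stimulation was then compared with 0 h within each genotype. On the deposited scale the median gene fell by 1.27 in WT and by 1.05 in cKO on the log2 scale, so changes are given also relative to it. In WT, 55.1% of 16002 genes were called lower, and in cKO 53.2% of 16223. All 5 members were called lower in both genotypes, and for each of them every 4 h sample was below every 0 h sample of its genotype, which held for 69.0% of all tested genes in WT and 67.9% in cKO.

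Ulk1 and Ulk2 fell the most of the 5. In WT the mean coverage of Ulk1 went from 778 ± 51.4 (SD, n = 2) to 78.7 ± 5.34, a 9.87-fold decrease (log2 fold change -3.30, SE 0.14, adjusted p = 0.00253 by limma). Ulk2 went from 1089 ± 16.9 to 103 ± 22, a 10.7-fold decrease (log2 fold change -3.41, SE 0.21, adjusted p = 0.00356 by limma). Both kinase genes thus lost about 2 log2 units more than the median gene, with -2.03 for Ulk1 and -2.14 for Ulk2. In cKO the decreases were 4.53-fold for Ulk1 (793 ± 55.2 to 175 ± 15.1) and 5.15-fold for Ulk2 (1605 ± 44.5 to 312 ± 6.82), or -1.13 and -1.31 relative to the median gene.

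Atg13 took an intermediate place, with a 4.91-fold decrease in WT (869 ± 70.3 to 177 ± 16.7) and a 2.80-fold decrease in cKO (1159 ± 110 to 414 ± 18.3). Rb1cc1 had log2 fold changes of -1.35 in WT and -1.13 in cKO, and Atg101 of -1.65 and -0.97, all with an adjusted p of 0.0101 or less by limma. The Rb1cc1 change was close to that of the median gene, from which it differed by -0.07 in WT and -0.08 in cKO, and Atg101 differed by -0.37 and 0.09. After median-centring, 3 members, Ulk1, Ulk2 and Atg13, were called lower in WT against 22.4% of all genes. In cKO 2 members, Ulk1 and Ulk2, were called lower against 23.2%, and Rb1cc1 in both genotypes and Atg101 in cKO changed sign. Of all calls in WT, 1907 were higher and 8815 lower on the deposited scale, and 5361 and 3581 after centring. The corresponding numbers in cKO were 2223 and 8627, and 5305 and 3758.

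Whether the genotype difference itself changed with stimulation was tested as an interaction in a fit of all 8 samples, in which 2.28% of 16284 genes had a cKO against WT difference that was higher at 4 h than at 0 h with an adjusted p under 0.05. Ulk1 was the 1 member called by this rule, which is stricter than that of the other comparisons. By a fold above 1.5 with an unadjusted p under 0.05, Ulk1, Ulk2, Atg13 and Atg101 passed (4 of 5) on the deposited scale, beside 13.5% of all genes. With median-centring Atg13 (0.55 on the log2 scale) and Atg101 (0.42) fell under the fold threshold. With quantile normalization Ulk2 (0.580), Atg13 (0.39) and Atg101 (0.52) did. The share of all genes passing this rule on those scales was not computed. For Ulk1 the genotype difference was greater by 1.12 at 4 h (log2 scale, SE 0.18, adjusted p = 0.0475 by limma). The call was lost without a filter on low values (adjusted p = 0.0538), with any other scaling of the samples (0.0545 to 0.0787), with the replicate number as a block (0.153) and when any 1 sample was left out (0.0569 to 0.151). The corresponding values were 1.05 for Ulk2 (SE 0.23, adjusted p = 0.0848), 0.81 for Atg13 (SE 0.19, adjusted p = 0.0926), 0.68 for Atg101 (SE 0.23, adjusted p = 0.178) and 0.21 for Rb1cc1 (SE 0.15, adjusted p = 0.465), all by limma. Rb1cc1 was at the median of all genes, 0.20, whereas the other members lay above it.

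With the values read as coverage per base, which the tables do not state, the make-up of the complex at the RNA level could be described within each sample, where multiplying a sample by a factor has no effect. At 0 h the summed coverage of the 5 genes was 3749 and 4007 in WT and 4597 and 4872 in cKO. Stimulated samples summed to 760 and 774 in WT and 1462 and 1469 in cKO. Unlike the order and the shares of the genes, these sums do change with such a factor. In resting WT BMDMs Ulk2 had the highest level, followed by Atg13, Ulk1, Atg101 and Rb1cc1, of which the last pair overlapped. In resting cKO cells the order was Ulk2, Atg13, Ulk1, Rb1cc1 and Atg101, with no overlap between neighbours. In stimulated WT cells Rb1cc1 was highest, Atg101 and Atg13 overlapped, and Ulk2 and then Ulk1 came last. In stimulated cKO cells Atg13 was highest (414 ± 18.3), Ulk2 and Rb1cc1 overlapped, and Atg101 and Ulk1 followed.

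As shares of the summed coverage, Ulk2 made up 28.1% ± 0.89 (SD, n = 2) in WT and 33.9% ± 0.45 in cKO at 0 h, and 13.4% ± 2.69 and 21.3% ± 0.39 at 4 h. Ulk1 made up 19.8% and 20.3% in the WT samples and 16.7% ± 0.48 in cKO at 0 h, and 10.3% ± 0.56 and 11.9% ± 0.99 at 4 h. At both times the cKO samples lay above the WT samples in the share of Ulk2, whereas the share of Ulk1 was lower in cKO at 0 h and higher at 4 h. The Atg13 share was 22.4% ± 0.76 in WT and 24.5% ± 1.33 in cKO at 0 h, and 23.1% ± 1.87 and 28.2% ± 1.15 at 4 h. Rb1cc1 made up 14.6% ± 0.08 and 14.3% ± 0.63 at 0 h, then 29.0% ± 0.31 in WT and 21.1% ± 1.91 in cKO at 4 h. Atg101 made up 14.8% ± 0.34 and 10.6% ± 0.73 at 0 h, then 24.2% ± 5.43 and 17.5% ± 0.63. The scaffold and Atg101 thus took a larger share in stimulated than in resting cells of both genotypes, and the kinases a smaller one.

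**Figure D4:**
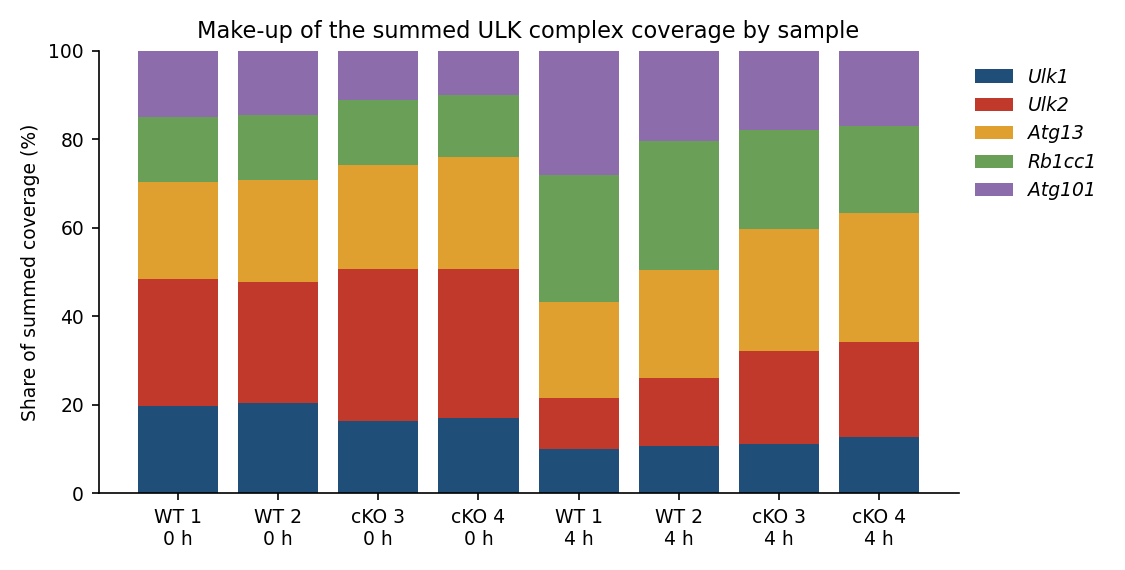
Share of each gene in the summed coverage of the 5 ULK complex genes (percent), 1 bar per sample, with the replicate number under it. The Ulk1 and Ulk2 segments are both smaller at 4 h than at 0 h in each genotype, and the Ulk2 segment is larger in cKO than in WT at both times.

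The balance of the kinase pair was read from the ratio of Ulk2 to Ulk1 within a sample, which a factor common to the whole sample cannot change, although quantile normalization can. At 0 h the ratio was 1.45 and 1.35 in WT and 2.09 and 1.97 in cKO. After stimulation it was 1.17 and 1.44 in WT and 1.87 and 1.70 in cKO. Every cKO sample thus had more Ulk2 for each Ulk1 than every WT sample. The log2 ratio was greater in cKO by 0.53 at 0 h and by 0.46 at 4 h, each with p = 0.333 in a two-sided exact permutation test, the smallest p that 2 samples against 2 allow. With stimulation the log2 ratio changed by -0.11 in WT (exact p = 0.667) and -0.19 in cKO (exact p = 0.333).

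The genes with the most similar profile were found by the Pearson correlation of log2 coverage over the 8 samples, among the 15271 genes whose mean coverage reached 1. For Ulk1 these were Slc43a2 (r = 0.9995), Foxo3, Soga1, Eif2ak1 and Cmip, and for Ulk2 Suds3 (r = 0.9995), Ext2, Map3k20, Cab39 and Ap1m1. Atg13 was closest to Mroh1 (r = 0.9989), Glmp, Nin, Tspan17 and Lrig2, and Rb1cc1 to Scaf1 (r = 0.9988), Atrn, Ttc37, Rnf216 and Zfp644. For Atg101 they were Tmem230 (r = 0.9968), Smim10l1, 2610301B20Rik, Arvcf and Fam78a. No member was among the 5 closest genes of another. Within the complex, Ulk2 and Atg13 were the most alike (r = 0.997, with 45 genes closer to Ulk2 and 35 closer to Atg13), and Atg13 and Atg101 the least (r = 0.932). All 5 profiles share the fall from 0 h to 4 h, so r is high for many genes and is given as a description.

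Genes that act on the complex or receive its signal were described from lists of its known partners. Of the AMPK, LKB1 and mTORC1 genes upstream of the kinases, 16 of 17 were tested at 4 h. In cKO 4 of them were called higher and none lower, with a median log2 fold change of 0.41 beside 0.31 for all genes. Those called were Tsc1 (0.86), which restrains mTORC1 as part of the TSC complex, Prkag2 (0.83), a regulatory subunit of AMPK, and Akt1s1 (0.77) and Mlst8 (0.68), which encode components of mTORC1. Tsc1, which at 4 h had 68.4 and 74.5 in WT and 129 and 131 in cKO, was also the only gene of this list called at 0 h (0.60), or 1 of 16 beside 8.99% of all genes.

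Among the substrates of ULK1 and ULK2, 3 of 12 were called higher and none lower in cKO at 4 h, with a median of 0.30. Sqstm1, the autophagy receptor p62, had a log2 fold change of 1.46 (SE 0.12, adjusted p = 0.047 by limma), with 14718 and 13795 in WT and 36932 and 41399 in cKO. Unlike the 5 members it was higher at 4 h than at 0 h in every sample of both genotypes. Smcr8 (0.83), a partner of C9orf72, and Ambra1 (0.67), which links Beclin 1 to the ULK complex, were also called. None of the 12 was called at 0 h by limma, beside 8.99% of all genes, although 4 had an unadjusted p under 0.05 (21.3% of all genes), and the median was 0.02 beside 0.10 for all genes.

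Of the genes for ubiquitin and chaperone control of ULK1, 3 of 9 were called higher and none lower at 4 h. These were the deubiquitinase gene Usp20 (0.83), Traf6 (0.65), a ubiquitin ligase of Toll-like receptor signalling, and Cdc37 (0.59), the kinase co-chaperone of HSP90. The list median was 0.39. Klhl20, a substrate adaptor of the Cul3 ligase, was the 1 of 9 called at 0 h (0.60), beside the same 8.99%, and was not called at 4 h (0.39, adjusted p = 0.294 by limma).

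Among the cargo receptors and membrane partners, 2 of 11 were called higher and none lower at 4 h, with a median of 0.41. Map1lc3b, which encodes the autophagosome membrane protein LC3B, was at 482 and 501 in WT and 1134 and 1173 in cKO, with a log2 fold change of 1.23 (SE 0.10, adjusted p = 0.0466 by limma). The cargo receptor gene Nbr1 (0.997) was the other. None of the 11 was called at 0 h by limma (4 had an unadjusted p under 0.05, beside 21.3% of all genes). In the interaction Map1lc3b was the 1 of the 11 called, beside 2.28% of all genes, and no gene of the other lists was called.

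None of the 3 ULK-like kinase genes outside the complex was called by limma at either time, and 0 of them had an unadjusted p under 0.05. At 4 h Ulk3 was at 27.5 and 44.2 in WT and 36.3 and 51.2 in cKO, so its groups overlapped where those of Ulk1 and Ulk2 did not. Ulk4, at 7.05 or less, and Stk36, at 3.42 or less in the 4 h samples, were little covered. Beside the 20.8% of all genes called higher at 4 h, the lists had 4 of 16, 3 of 12, 3 of 9, 2 of 11 and 0 of 3. With an adjusted p under 0.05 by limma, Sqstm1 and Map1lc3b alone of these genes were called, beside 3.33% of all genes.

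**Figure D5:**
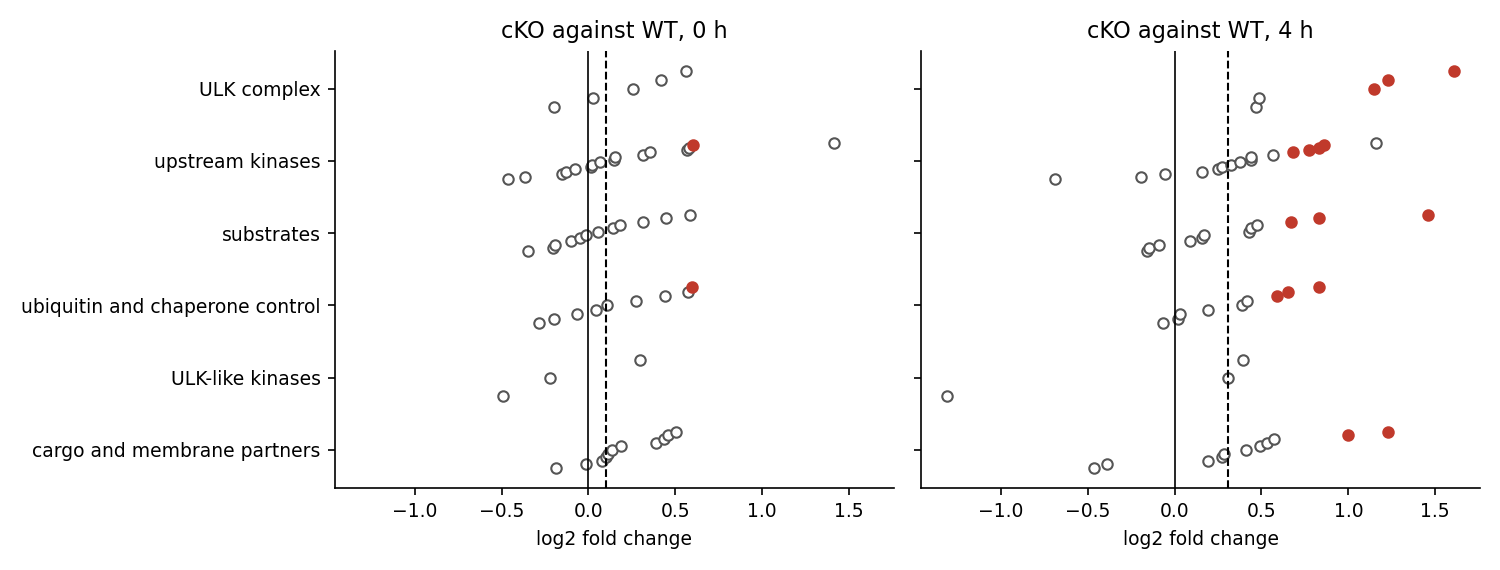
Log2 fold changes of cKO against WT at 0 h (left) and 4 h (right) for the 5 ULK complex genes and 5 lists of partner genes, 1 point per gene, spread vertically only for legibility. Filled red points were called (fold above 1.5, p under 0.05 by limma) and the dashed line is the median of all genes tested (0.10 and 0.31). At 4 h Ulk2 has the highest value of all the genes shown.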

How the data were processed

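The authors aligned paired-end reads to GRCm38 (mm10) with HISAT2 2.2.1, quantified RefSeq genes with StringTie 2.1.7 and deposited a coverage signal for each gene and sample, with 1 table per time. The tables name no unit. Among low values of genes with 1 annotated transcript, 24.5% to 36.9% per sample were whole numbers of bases (within 0.01) when multiplied by transcript length, and the values were read as mean coverage per base, which rests on this share and on the quantifier used. The number of reads behind a value is not known, so no counting interval was computed. The authors' columns of fold changes, p-values and classes were not used, and 0 columns of per-sample values were left out.

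Genotypes and times were compared in R 4.3.3 by limma 3.58.1, which was fitted to log2(coverage + 0.1) of all genes whose mean reached 0.5, on the deposited scale, with p-values adjusted over all tested genes. Fold changes are on this log2 scale. By the study's methods each sample pools cells of a pair of mice, and p-values measure the spread between such pools. The methods speak of a pair of samples per genotype, so the same pools may have been used at both times, but they do not tie the replicate numbers to mice.

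The members, lists and tests were chosen with earlier results of these data known. All members and Nudt21 were named, with the called genes of each partner list (at most 6) and the 5 most similar genes of each member. Alternatives covered pseudocount, filter, scaling, variance estimate, samples in the fit, the replicate block and leaving out each sample. Primer sequences came from the study's primer table. A further B cell marker is not reported here.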

Additional observations from a re-analysis of the deposited data

Results flagged for a closer look

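By the interaction test the difference between genotypes changed with stimulation for Ulk1, where the cKO against WT difference was greater by 1.12 at 4 h (log2 scale, adjusted p = 0.0475 by limma). This call was lost with the replicate block (adjusted p = 0.153), under every other scaling tried and when any 1 sample was left out. The cKO and WT samples overlapped at 0 h and were separate at 4 h.

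Atg101 had values on opposite sides at the 2 times, with both cKO samples below both WT samples at 0 h (510 and 490 against 564 and 584) and above them at 4 h (262 and 250 against 213 and 157). The difference between the times was 0.68 on the log2 scale, with an unadjusted p of 0.0301 and an adjusted p of 0.178 by limma. With median-centring it was 0.42 (unadjusted p = 0.258 by limma), and the genotype difference at 4 h was 0.15 instead of 0.48. The genotype difference passed the test at neither time. The share of all genes that change sides in this way was not computed.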

How the results depend on the processing

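Of 245 values of single members under other settings, 221 kept their direction and their side of the threshold. The fold change itself could move only with the pseudocount or the scaling, since the other settings here leave it as it is. Not among the 245 are Ulk2 for cKO against WT at 4 h and the fits without 1 sample. The 3 members called at 4 h became 0 with adjusted p-values, and Ulk2 then missed the threshold with its log2 fold change of 1.61 (adjusted p = 0.0576 by limma). The adjusted p of all 3 by limma was under 0.05 with pseudocount 1 (0.0403 to 0.0441) and a filter at 1 (0.0462 to 0.0499). So it was with an intensity trend (0.00216 to 0.00450) and all 8 samples in the fit (0.00665 to 0.00737). It stayed above 0.05 with each other scaling, no filter and unmoderated variance (0.0591 to 0.113). Leaving out 1 sample gave 0 to 1 members at 0 h (Ulk2, without cKO replicate 3). The 5 members lower in WT after stimulation became 3 with median-centring and 3 with quantile normalization, and the 5 in cKO became 2 and 3. The 1 member of the interaction became 0 without a filter, with unmoderated variance and with each of the other scalings (median-centring, quantile normalization and equal total coverage), 3 with an intensity trend (Ulk1, Ulk2 and Atg13), and 0 to 1 without 1 sample. The 1 there was Ulk2, without WT replicate 2 of 4 h (adjusted p = 0.0289). For these changes the cause was not tested. The genotype difference of Ulk1 at 0 h turned to -0.065 with median-centring, -0.090 after quantile normalization and -0.096 at equal total coverage, and to -0.041 and -0.044 without WT replicate 1 or cKO replicate 4. With median-centring Rb1cc1 after stimulation turned to 0.10 in WT and 0.070 in cKO, and Atg101 in cKO to 0.24. The interaction of Rb1cc1 turned to -0.051 with median-centring and -0.014 with quantile normalization.

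Replicate numbers recur at both times within a genotype. Deviations of same-numbered samples correlated at only 0.020 in WT and 0.024 in cKO over 16284 genes. With 2 samples per group the deviations mirror each other, so these values cannot exclude that the numbers mark shared pools. The numbers were not taken to pair the samples, and the replicate block was used only as an alternative. With the replicate block all 5 members were still called lower in WT and in cKO, and the interaction count became 0 (Ulk1 adjusted p = 0.153). WT and cKO share no numbers, so no such fit exists for the genotype comparisons.

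With 2 samples per group the spread is poorly known. Leaving out a sample leaves its group with 1, assumed to vary like the others. The count tests planned in case of counts were not run, since the tables hold coverage.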
